A study of Mus musculus with 20 samples.

Results

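Mouse blastocysts that had received a mimic of the microRNA let-7f-5p as zygotes were compared with blastocysts from zygotes injected with the vehicle, and the account follows the changed genes by function beyond those with the smallest p-values. The 15 libraries compared, of 20 in the series, were 8 of Str let-7f, in which zygotes received it at a concentration close to the raised level in sperm of stressed males, and 7 of vehicle, the nuclease-free water in which the mimic was dissolved. The other 5 libraries, 2x Str let-7f, received the mimic at the doubled concentration; they entered the same fit and are given beside Str let-7f where named. Each library was 1 pool of 10 whole embryos, all wild type and of the strain labelled F1 C57BL/6Jx129S1/SvlmJ, cultured in KSOM medium at 5% O2. No group received an unrelated mimic, so the sequence of the mimic and the presence of any mimic cannot be told apart here. Neither a day of injection nor a library batch is labelled, and whether pools came from separate females is not stated, so a p-value here reflects only how much these pools varied.

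MicroRNAs of the let-7 family guide silencing complexes to messenger RNAs that pair with their seed, the bases near the 5′ end. They are scarce in early embryos, where LIN28 proteins block their maturation, and rise as cells differentiate. A blastocyst holds an outer epithelium, the trophectoderm, and an inner cell mass of epiblast and primitive endoderm. In such bulk pools, fewer cells of a type and less RNA per cell cannot be told apart. The sequence of the injected mimic is set beside members of the family that share its seed, since a site for one is a site for all of them. The seed, bases 2 to 8, is in capitals (RefSeq on GRCm38.p6; the mimic as the labels give it):
let-7f mimic: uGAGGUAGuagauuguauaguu
mmu-let-7a-5p: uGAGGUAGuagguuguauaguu
mmu-let-7g-5p: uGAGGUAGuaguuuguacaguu
mmu-miR-98-5p: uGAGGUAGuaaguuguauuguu
The mimic had the same letters as mature mmu-let-7f-5p, and 11 of the 1679 mature miRNA names in the RefSeq table carried this seed.

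A normalized count is the number of reads of a gene after the authors' scaling for depth, and a log2 fold change was taken on log2(normalized count + 1), with its standard error (SE) after the ± sign. A gene was called at a limma adjusted p under 0.05. Of 15068 genes tested, 397 or 2.63% were called between Str let-7f and vehicle blastocysts, with 277 (1.84%) higher and 120 (0.796%) lower, and the median log2 fold change of all genes tested was -0.02. Genes called higher were of middling level, with a median of their group means of 437 normalized counts in Str let-7f and 198 in vehicle. Genes called lower stood at 408 in Str let-7f and 720 in vehicle, against 181 and 178 for all genes tested. Of the 397 calls, 234 (176 higher, 58 lower) passed again on leaving out each of the 15 libraries in turn. Genes named below belong to these 234 unless a sentence says that a call was lost. In all genes tested, 93 had every Str let-7f pool above every vehicle pool and 35 had every one below, together 0.849%.

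**Figure D1:**
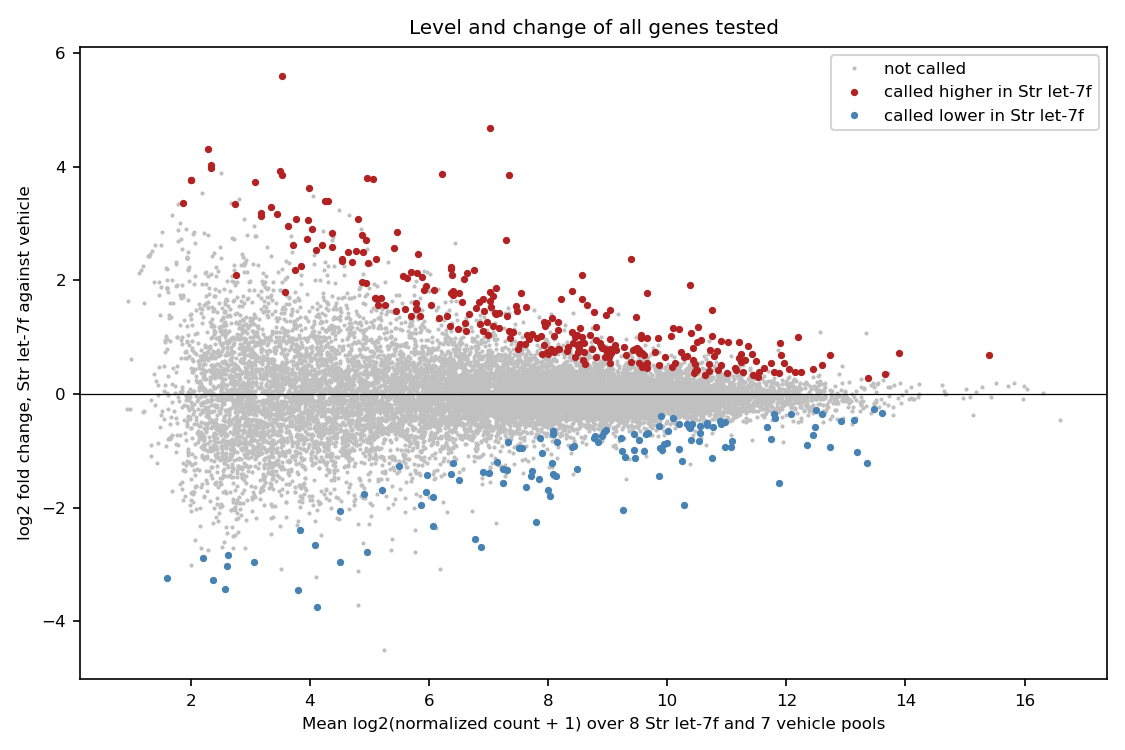
The plot of level and change has 1 point per gene tested, with the mean log2(normalized count + 1) over 8 Str let-7f and 7 vehicle pools on the horizontal axis and the log2 fold change, Str let-7f against vehicle, on the vertical axis. The 277 genes called higher and the 120 called lower lie at all levels above the lowest, with larger fold changes among genes of low level.

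Depth was 1.54 to 58.8 M reads (median 12.4) in Str let-7f, 1.94 to 27.2 M (median 5.04) in 2x Str let-7f and 3.30 to 46.6 M (median 10.5) in vehicle. A fit of the deeper libraries, those with over 5 M reads (7 Str let-7f, 3 2x Str let-7f and 5 vehicle), called 201 genes, and 174 of the 397 passed again, so each group below is given with its count there where that moved by more than 1.5 times. Of the markers of other tissues, 2 of 10 for cumulus and granulosa cells, 1 of 10 for sperm, 3 of 10 for blood and 4 of 10 for fibroblasts were in the table. Their summed levels were at most 59.8 RPM (reads per 1 M reads of the library) in a Str let-7f pool and 53.4 in a vehicle pool, against 7121 to 11572 and 7638 to 10543 for 10 trophectoderm markers. Of the 4 fibroblast markers 1 was called lower, with summed medians of 27.7 RPM in Str let-7f and 37.6 in vehicle. None of the cumulus, sperm or blood markers tested was called. None of the 10 trophectoderm and 9 epiblast markers tested was called by limma, and 4 of 10 primitive endoderm markers were lower (Gata4, Sox7, Dab2 and Cubn), of which the calls of Gata4 and Dab2 were lost in 7 and 10 of 15 leave-outs. Gata6, Sox17, Pdgfra, Foxa2, Hnf4a and Lrp2 were not called, and the summed level of the 10 was 3097 to 4975 RPM (median 3943) in Str let-7f pools and 3451 to 6146 (median 4074) in vehicle pools.

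A larger share of the genes that fell than of those that rose, or of all genes tested, carried let-7 sites. The 8-base site CTACCTCA, the complement of the seed followed by A, was found in the longest annotated 3′ untranslated region of 11 of 116 genes called lower (9.48%), 7 of 266 called higher (2.63%) and 504 of 13449 tested (3.75%) that have such a region. Allowing also its parts CTACCTC and TACCTCA, which overlap it, the shares were 30.2% of genes called lower, 11.7% of those called higher and 17.6% of all tested. Of the lower calls with such a region, the 8-base site was in 10 of 57 that held in every leave-out (17.5%) and in 1 of 59 that did not (1.69%). The median length of the region was 1353 bases in genes called lower and 1196 in all tested. Only the transcript strand was searched, and a match is a match of letters. Of the 504 genes with the 8-base site, 293 lay below 0, with a median log2 fold change of -0.06, against 6932 of the 13449 with a 3′ region and a median of -0.01.

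Sites are shown for genes in which every Str let-7f pool fell below every vehicle pool, in windows of 24 bases with the 8-base site in capitals (GENCODE M21, GRCm38; the deposited values were made on GRCm39). Trim6 carries 5 sites, of which the first 3 stand here because their surroundings repeat every 45 bases:
Trim6 site 1, chr7:104233459-104233482, + strand: tactgattatagatCTACCTCAca
Trim6 site 2, chr7:104233504-104233527, + strand: tactgattatagctCTACCTCAca
Trim6 site 3, chr7:104233549-104233572, + strand: tactgattatagatCTACCTCAca
Acsl6 site 1, chr11:54361589-54361612, + strand: ctaggcaatgtggaCTACCTCAtt
Lin28a site 1, chr4:134005187-134005210, - strand: cacagcctgttgaaCTACCTCAtt
Rbms1 site 1, chr2:60751081-60751104, - strand: acgtgatcagttatCTACCTCAga

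Trim6, a ubiquitin ligase of the TRIM family, had 471 to 1357 normalized counts (median 874) in Str let-7f pools, against 1463 to 2417 (median 1899) in vehicle pools (-1.18 ± 0.18, limma adjusted p = 0.000548). Every Str let-7f pool was below the lowest vehicle pool. The acyl-CoA synthetase gene Acsl6, which activates long-chain fatty acids, had 292 to 589 (median 458) in Str let-7f pools and 825 to 1239 (median 853) in vehicle pools (-1.11 ± 0.16, limma adjusted p = 0.000187), again without overlap. Ddx19a, an RNA helicase gene with 1 site, had 384 to 754 (median 422) in Str let-7f pools and 620.3 to 922 (median 796) in vehicle pools (-0.77 ± 0.15, limma adjusted p = 0.00569). Rbms1, which encodes an RNA-binding protein, had 284 to 419 (median 351) in Str let-7f pools and 488 to 838 (median 529) in vehicle pools (-0.74 ± 0.15, limma adjusted p = 0.00904). Neither Ddx19a nor Rbms1 passed in the deeper libraries (limma adjusted p = 0.0534 and 0.0683). In the 3′ regions of 4 regulators of early development, Lin28a carried 2 sites, Trim71 4, Igf2bp1 3 and the nuclear receptor gene Nr6a1 3. Their log2 fold changes were -1.44, -0.80, -0.57 and -1.70, and these 4 were the calls of a list of LIN28, let-7 and RNA-binding regulators that held in every leave-out. In that list 5 of 52 measured members fell and 0 rose, with a median of -0.12. Of 78 measured let-7 targets outside that list, Plagl1, a zinc finger gene, rose (1.80 ± 0.37) and Trim6 fell, a share of 2.56%, close to that over all genes tested, with 48 below 0 and a median of -0.16. The fifth call of the LIN28 list, the MYC family gene Mycn, was called at -0.98 ± 0.27 and lost in 12 of 15 leave-outs, with a limma adjusted p up to 0.104 without vehicle replicate 2. The mean level of this list was lower in each of the 8 Str let-7f pools than in any vehicle pool, lying between -0.40 and -0.08 relative to the vehicle mean on the log2 scale.

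Linker proteins that tie keratin filaments to the cell cortex stood out among the higher genes. Of 11 plakins and cytolinkers measured, of 15 listed, 4 rose and 0 fell, with a median log2 fold change of 0.19. Plec, which encodes plectin, a linker of intermediate filaments to actin and microtubules, had 14640.4 to 22714 normalized counts (median 19505) in Str let-7f pools, against 10002 to 13256 (median 12564) in vehicle pools (0.72 ± 0.09, limma adjusted p = 7.88e-05). It was among the highest of all called genes, and all 8 Str let-7f pools lay above every vehicle pool. Evpl, the envoplakin gene, whose protein pairs with periplakin in stratified epithelia, had 45.0 to 367 (median 201) in Str let-7f pools and 12.0 to 77.0 (median 43.1) in vehicle pools (2.20 ± 0.43, limma adjusted p = 0.00493). For this gene 7 of 8 Str let-7f pools lay above every vehicle pool. Periplakin and epiplakin, encoded by Ppl and Eppk1, completed the group at 2.38 ± 0.15 and 1.82 ± 0.22 on the log2 scale.

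**Figure D2:**
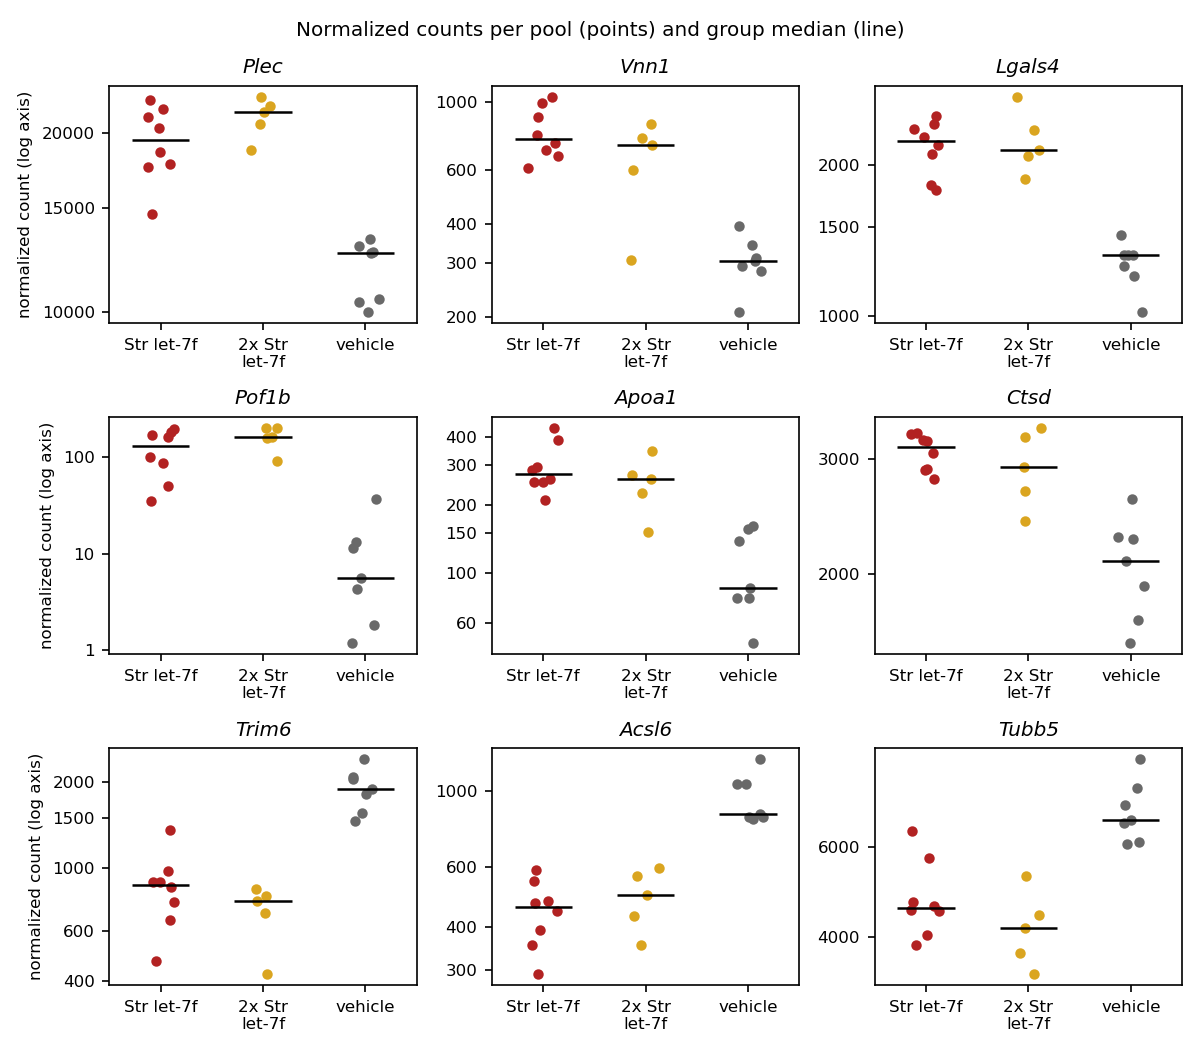
Normalized counts of 9 genes are plotted per pool on log axes, with 8 Str let-7f pools on the left, 5 2x Str let-7f pools in the middle and 7 vehicle pools on the right, and a line at each group median. Plec, Vnn1, Lgals4, Apoa1 and Ctsd show every Str let-7f pool above every vehicle pool, Trim6 and Acsl6 every one below, while for Pof1b and Tubb5 1 of 8 pools overlaps.

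Genes of the contractile and microtubule cytoskeleton changed in a few members each. Of 34 myosin and contractility genes, 5 rose and 0 fell, with a median of 0.00, and beside the nonmuscle myosin gene Myh14 (3.86 ± 0.34) the other calls were of small GTPases and an effector. Rhou, an atypical small GTPase, had 177 to 281 normalized counts (median 252) in Str let-7f pools, against 50.8 to 203 (median 118) in vehicle pools (1.09 ± 0.24, limma adjusted p = 0.011). Rhob, an endosomal small GTPase, had 331 to 701 (median 549) in Str let-7f pools and 157 to 401 (median 274) in vehicle pools (0.91 ± 0.20, limma adjusted p = 0.0115), with 6 of 8 Str let-7f pools lying above every vehicle pool. Rnd1, a GTPase that loosens actin fibres, had 33.0 to 146 (median 65.4) in Str let-7f pools and 3.08 to 36.7 (median 14.3) in vehicle pools (2.31 ± 0.48, limma adjusted p = 0.00902). Rnd1 did not pass in the deeper libraries (limma adjusted p = 0.0501), where 3 of the group passed. The CDC42 effector gene Cdc42ep3 was called at 1.21 ± 0.30 and lost in 4 of 15 leave-outs, with a limma adjusted p up to 0.0605 without Str let-7f replicate 6.

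Tubulin isotypes moved in both directions. Of 32 measured tubulin and microtubule genes, 4 rose and 4 fell (median 0.02), and 5 were called in the deeper libraries. Tuba4a, an alpha-tubulin gene, had 689 to 1279 normalized counts (median 1060.4) in Str let-7f pools, against 406 to 765 (median 472) in vehicle pools (0.98 ± 0.16, limma adjusted p = 0.000737). Tubb4b, a beta-tubulin gene, had 3606 to 4489 (median 3971) in Str let-7f pools and 2601 to 3603 (median 3042) in vehicle pools (0.40 ± 0.08, limma adjusted p = 0.00461), a small difference in which the groups did not overlap. In the other direction, the beta-tubulin gene Tubb5 had 3843 to 6440.3 (median 4552) in Str let-7f pools and 6086 to 8941 (median 6768) in vehicle pools (-0.58 ± 0.12, limma adjusted p = 0.00638). Together, Tubb5 fell while Tubb4b and Tuba4a rose in the same pools. Clip1, which encodes a protein that tracks growing microtubule ends, rose by 0.79 ± 0.15, and Map2, a microtubule stabiliser best known from neurons, by 1.97 ± 0.42. Stmn2, a stathmin gene that destabilises microtubules, had 0 to 30.2 (median 15.8) in Str let-7f pools and 33.7 to 260.3 (median 107) in vehicle pools (-2.78 ± 0.61, limma adjusted p = 0.0115). The remaining calls, Tuba1b (-0.42 ± 0.11) and Tubb3 (-2.65 ± 0.70), were each lost in 9 and 11 of 15 leave-outs, up to adjusted p of 0.0956 and 0.11 without vehicle replicate 2. Map2 did not pass in the deeper libraries (limma adjusted p = 0.0762). Near-identical tubulin transcripts share reads that the authors' counting tool divides among them, so single isotypes are uncertain.

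Apical membrane genes gave 2 higher and 1 lower of 24 measured, with a median of 0.31. The 2 that rose were Mal and Plec, which was also counted among the plakins above. Mal, a proteolipid of apical transport vesicles, had 13.4 to 45.9 normalized counts (median 28.2) in Str let-7f pools, against 0 to 6.16 (median 0.472) in vehicle pools (3.73 ± 0.69, limma adjusted p = 0.00326), from 20 reads over all vehicle libraries and 482 over all Str let-7f libraries. Podxl, the sialomucin podocalyxin of apical surfaces, went the other way at 12.1 to 151 (median 59.1) in Str let-7f pools and 193 to 428 (median 344) in vehicle pools (-2.68 ± 0.43, limma adjusted p = 0.000736). Neither Mal nor Podxl had overlapping groups. All vehicle values of Mal were under 10, the minimum of the filter on low values. Mal thus passed that filter through its mimic pools, and its fold and lack of overlap are partly set by it.

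Matrix genes made up the group with the largest share of lower calls. Of 24 measured basement membrane genes, 7 fell and 1 rose, with a median of -0.63 against -0.02 over all genes tested. Col4a1, a chain of the collagen IV network, had 2489 to 6249 normalized counts (median 3994) in Str let-7f pools, against 5823 to 10142 (median 6907) in vehicle pools (-0.90 ± 0.19, limma adjusted p = 0.00782). With Lamb1 (-0.94), Lamc1 (-1.02), Lama1 (-1.21) and Nid2 (-2.05), the chains of laminin-111 and a nidogen were all lower. Sparc, a matrix glycoprotein gene, stood at -0.94 and Hspg2, which encodes perlecan, at -1.56. Lama3, the chain that marks laminin-332 of epithelia on a basal membrane, was the exception with 89.7 to 317 (median 269) in Str let-7f pools and 49.9 to 154 (median 88.3) in vehicle pools (1.44 ± 0.30, limma adjusted p = 0.00902). Lama1 and Lama3, the alpha chains of these laminins, thus lay on opposite sides of vehicle, although Lama3 did not pass in the deeper libraries (limma adjusted p = 0.0822). Markers of the primitive endoderm, a source of laminin-111 in the embryo, were lower in 4 of 10 cases in the same pools, 2 of which were lost in leave-outs, while the summed level of the 10 overlapped between the groups (medians of 3943 RPM in Str let-7f and 4074 in vehicle). Their part in the matrix values was not tested.

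Some genes of the secretory pathway were lower in the same pools as the matrix genes. Of 32 measured genes of collagen processing and the secretory lumen, 5 fell and 0 rose, 27 lay below 0, and the median was -0.34. Ckap4, which encodes a membrane protein of endoplasmic reticulum sheets, had 564 to 1061 normalized counts (median 667) in Str let-7f pools, against 1205 to 1571 (median 1308) in vehicle pools (-0.95 ± 0.15, limma adjusted p = 0.000683). Golm1, a Golgi membrane protein gene, had 329 to 852 (median 578) in Str let-7f pools and 703 to 1752 (median 1068) in vehicle pools (limma adjusted p = 0.00856), with 6 of 8 Str let-7f pools lying below every vehicle pool. Its relative Golm2 stood at -0.82 and the reticulocalbin gene Rcn1, a calcium-binding protein of the lumen, at -1.35, both on the log2 scale and without overlap of the groups. A second reticulocalbin gene, Rcn3, was called at -2.96 ± 0.78 and lost in 11 of 15 leave-outs, with a limma adjusted p up to 0.0954 without vehicle replicate 2. All 8 Str let-7f pools were below every vehicle pool in the mean level of the list, between -0.75 and -0.23 relative to the vehicle mean. With DESeq2 the list had 10 calls. Genes of endoplasmic reticulum folding, a neighbouring list of 28, gave no call (median -0.01, 4 at an unadjusted p under 0.05, 0 by edgeR and 2 by DESeq2).

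Some endocytosis genes were lower, and some lysosomal genes higher. Of 35 measured endocytosis genes, 7 fell and 1 rose (median -0.20), but 3 were called in the deeper libraries. Apoa1, the main apolipoprotein of high-density lipoprotein and a product of yolk sac endoderm, was the member that rose, with 211 to 440.3 normalized counts (median 274) in Str let-7f pools, against 48.7 to 161 (median 85.6) in vehicle pools (1.56 ± 0.25, limma adjusted p = 0.000956). Every Str let-7f pool had more Apoa1 than any vehicle pool. Cubn, the cubilin receptor gene, was lower, at -1.13 ± 0.16. The 6 further calls were lost in leave-outs, and they were Amn, the partner of cubilin (-3.75 ± 0.88, lost without vehicle replicate 2), Ctsl (-0.59, lost without vehicle replicate 2, vehicle replicate 3 or vehicle replicate 6), Snx5 (-0.35), Lrp4 (-1.04), Cltc (-0.26) and Dab2 (-0.34). Those of Snx5, Lrp4, Cltc and Dab2 were lost in 5, 10, 11 and 10 of 15 leave-outs. The count of calls was 2 without vehicle replicate 2, 4 without vehicle replicate 3 or 6, and 5 without vehicle replicate 1 or 7 or Str let-7f replicate 5, 6, 7, 9 or 10.

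Of 43 measured lysosome genes, 4 rose and 2 fell (median 0.15), and both that fell, Ctsl and Npc2 (-0.39, lost in 14 of 15 leave-outs), did not hold. Ctsd, the aspartic protease cathepsin D, had 2795 to 3299.6 normalized counts (median 3131) in Str let-7f pools, against 1563 to 2611 (median 2093) in vehicle pools (0.60 ± 0.10, limma adjusted p = 0.00185). Gm2a, an activator protein of ganglioside breakdown, had 12939.6 to 16589 (median 14239) in Str let-7f pools and 10423 to 12738 (median 10677) in vehicle pools (0.36 ± 0.07, limma adjusted p = 0.00523). For both genes all 8 Str let-7f pools lay above every vehicle pool. Gusb, the beta-glucuronidase gene, had 272 to 987 (median 546) in Str let-7f pools and 158 to 323 (median 252) in vehicle pools (1.17 ± 0.20, limma adjusted p = 0.00183), with 7 of 8 Str let-7f pools lying above every vehicle pool. The fourth gene was Gpnmb, a glycoprotein of lysosomes and melanosomes, at 4.68. Of 18 genes of the V-ATPase, the proton pump of lysosomes, and of 35 autophagy genes, 0 were called by limma (2 and 9 at an unadjusted p under 0.05, 0 of each by edgeR, 0 and 1 by DESeq2).

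Genes of glutathione and thioredoxin chemistry that the factor NRF2 induces gave 6 higher and 0 lower of 41 measured (median 0.12), 3 of them in the deeper libraries. Gsto1, a glutathione transferase of the omega class, had 2408 to 3794 normalized counts (median 3324) in Str let-7f pools, against 1407 to 1967 (median 1714) in vehicle pools (0.92 ± 0.12, limma adjusted p = 7.88e-05), with no overlap. Abcc1, an exporter of glutathione conjugates, had 696 to 1322 (median 951) in Str let-7f pools and 422 to 771 (median 512) in vehicle pools (0.82 ± 0.16, limma adjusted p = 0.00576). Thus an enzyme of glutathione transfer and an exporter of its products were both higher, as was Gclc, of the first step of glutathione synthesis (1.13 ± 0.24; limma adjusted p = 0.0732 in the deeper libraries). Txnrd1 stood at 0.74. Gss, of the second step, at 0.47 ± 0.13, and the sulfiredoxin gene Srxn1, at 1.64 ± 0.45, were lost in 11 and 10 of 15 leave-outs.

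Other oxidoreductases split, with 2 higher and 2 lower of 41 (median 0.11), 1 of them called in the deeper libraries. Cbr2, a carbonyl reductase gene almost silent in vehicle, had 12.0 to 259.7 normalized counts (median 64.8) in Str let-7f pools, against 0 to 3.57 (median 0) in vehicle pools (5.60 ± 0.57, limma adjusted p = 1.88e-06). Akr1b8, an aldo-keto reductase gene, had 2996 to 3853 (median 3335) in Str let-7f pools and 2029 to 3074 (median 2544) in vehicle pools (0.38 ± 0.09, limma adjusted p = 0.016). Both enzymes reduce carbonyl groups with NADPH. All vehicle values of Cbr2 were under 10, the minimum of the filter on low values, so it passed that filter through its mimic pools. On the lower side were 2 genes of retinoid metabolism. Adh1, an alcohol dehydrogenase that can oxidise retinol, had 1683 to 3556 (median 2903) in Str let-7f pools and 2798 to 5837 (median 4937) in vehicle pools (-0.78 ± 0.16, limma adjusted p = 0.00569). Cyp26a1, which degrades retinoic acid, was detected in 3 of 8 Str let-7f and 7 of 7 vehicle libraries, at 0 to 31.3 (median 0) in Str let-7f pools and 12.1 to 56.6 (median 20.3) in vehicle pools (-3.43 ± 0.72, limma adjusted p = 0.00919). It did not pass with edgeR (adjusted p = 0.202) or with DESeq2 (adjusted p = 0.248), and Akr1b8, Adh1 and Cyp26a1 did not pass in the deeper libraries (limma adjusted p = 0.0815, 0.0615 and 0.0514).

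In lipid metabolism the calls spanned synthesis and oxidation. Of 39 measured genes of fatty acid synthesis and lipid droplets, 2 rose and 1, Acsl6, fell (median 0.15). Acacb, the acetyl-CoA carboxylase of the mitochondrial surface, whose product malonyl-CoA restrains fatty acid import, had 519 to 1032 normalized counts (median 748) in Str let-7f pools, against 276 to 562 (median 389) in vehicle pools (0.97 ± 0.16, limma adjusted p = 0.00115). Fabp5, a fatty acid binding protein of epithelia, had 935 to 2623 (median 2142) in Str let-7f pools and 491 to 1459.7 (median 1052) in vehicle pools (1.08 ± 0.25, limma adjusted p = 0.0181). Of 33 measured genes of fatty acid oxidation, 4 rose and 0 fell, and 24 lay above 0 (median 0.25). Slc25a20, the carrier that brings acylcarnitines into mitochondria, had 545 to 1267 (median 983) in Str let-7f pools and 447 to 685 (median 489) in vehicle pools (0.78 ± 0.18, limma adjusted p = 0.015). The carrier of fatty acid import and the enzyme that restrains it were therefore both higher. Acads (0.74), Hadha (0.34) and Eci2 (0.76), of the oxidation cycle itself, were each lost in 11 of 15 leave-outs. None of the 33 passed with limma in the deeper libraries, where Slc25a20 and Fabp5 had adjusted p of 0.115 and 0.0501; in all libraries 13 of the 33 had an unadjusted p under 0.05, 2 passed with edgeR and 6 with DESeq2. The count was 1 without Str let-7f replicate 5, 7 or 9 or vehicle replicate 2, 3 or 8, and 2 without Str let-7f replicate 2, 6 or 10 or vehicle replicate 1 or 5.

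**Figure D3:**
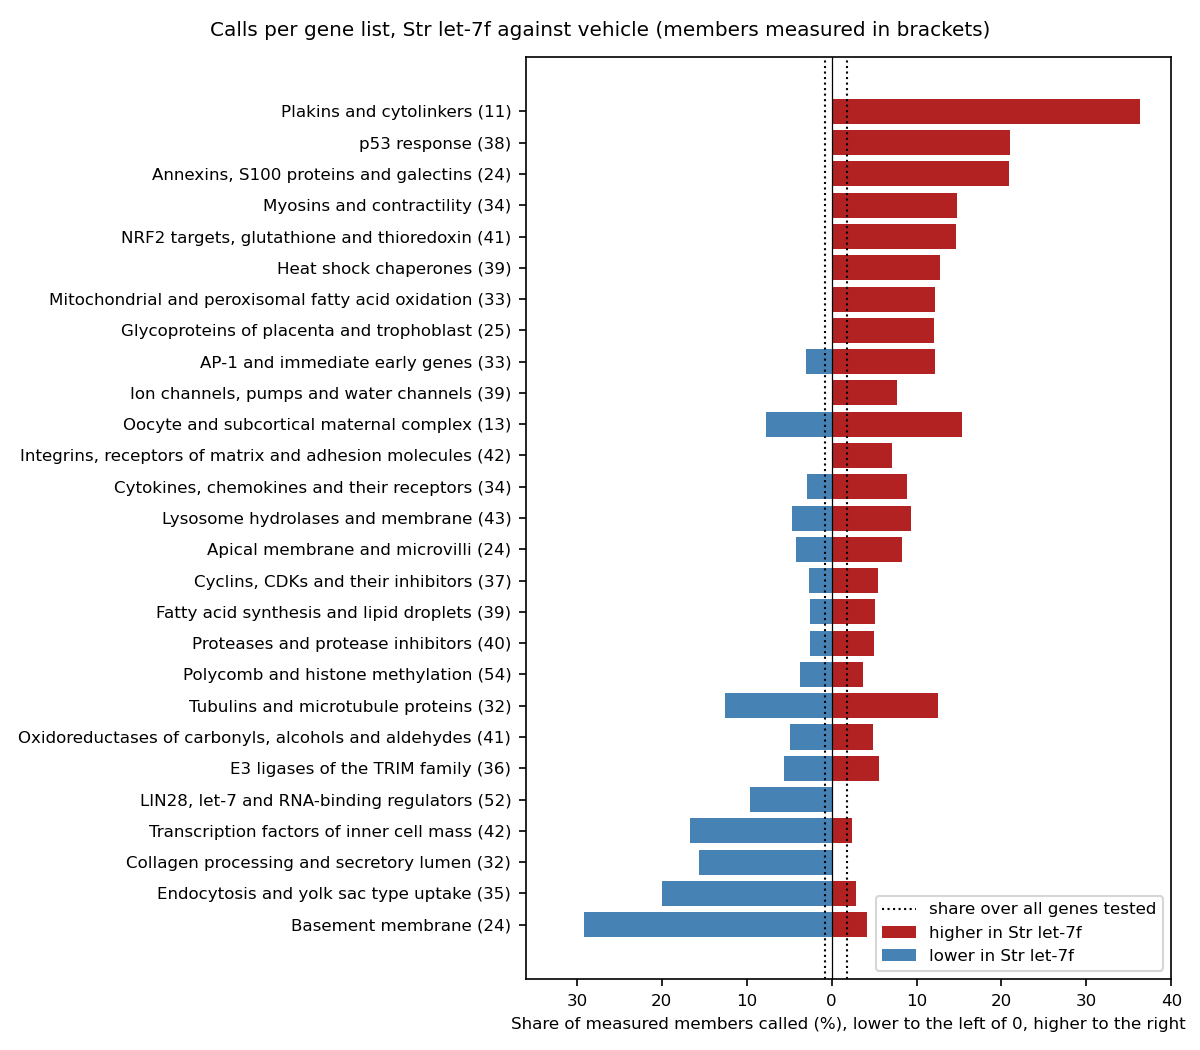
Bars give, for each of the 27 lists with 3 or more calls, the share of measured members called higher (to the right of 0) or lower (to the left) in Str let-7f against vehicle, in percent, with the number measured in brackets and dotted lines at the shares over all genes tested, 1.84% higher and 0.796% lower. Plakins reach 4 of 11 on the higher side, and basement membrane genes 7 of 24 on the lower side.

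Annexins, S100 proteins and galectins, calcium-dependent or sugar-binding proteins, gave 5 higher and 0 lower of 24 measured (median 0.14). The calls were of galectin genes and the annexin gene Anxa1, and none was of an S100 gene. Lgals4, a galectin that organises apical lipid rafts, had 1779 to 2508 normalized counts (median 2235) in Str let-7f pools, against 1015 to 1449 (median 1319) in vehicle pools (0.78 ± 0.10, limma adjusted p = 0.000101). It was the most abundant of the called members and showed no overlap between groups. Lgals7, a galectin of stratified epithelia, had 19.6 to 113 (median 65.1) in Str let-7f pools and 0 to 22.5 (median 8.34) in vehicle pools (3.40 ± 0.62, limma adjusted p = 0.00306). Lgals9 had 61.3 to 317 (median 96.0) in Str let-7f pools and 15.4 to 50.2 (median 29.4) in vehicle pools (1.84 ± 0.35, limma adjusted p = 0.00359), all 8 Str let-7f pools above the vehicle pools. The annexin gene Anxa1, whose protein restrains phospholipase and inflammation, had 18.7 to 97.9 (median 35.0) in Str let-7f pools and 0 to 26.0 (median 4.72) in vehicle pools (2.54 ± 0.60, limma adjusted p = 0.0194) but did not pass with edgeR (adjusted p = 0.0504). Lgals3 was called at 0.98 ± 0.25 and lost in 5 of 15 leave-outs, with a limma adjusted p up to 0.0768 without vehicle replicate 3.

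Channel and pump genes had 3 higher and 0 lower of 39 (median -0.01). Scnn1a, a subunit of the epithelial sodium channel, had 42.8 to 379.8 normalized counts (median 113) in Str let-7f pools, against 0 to 90.9 (median 5.94) in vehicle pools (3.79 ± 0.76, limma adjusted p = 0.00619), with 5 of 8 Str let-7f pools lying above every vehicle pool. Atp2a3, a calcium pump of the endoplasmic reticulum, had 120.3 to 329 (median 159) in Str let-7f pools and 7.79 to 82.5 (median 53.8) in vehicle pools (1.78 ± 0.38, limma adjusted p = 0.00934). The potassium-chloride cotransporter gene Slc12a7 was called at 0.42 ± 0.11 and lost in 12 of 15 leave-outs, with a limma adjusted p up to 0.0961 without vehicle replicate 1. Kcnf1 and Lrrc8b, channel subunit genes named by rank and outside the list, were also higher. Kcnf1, a potassium channel subunit that modifies other subunits, had 83.7 to 234 (median 161) in Str let-7f pools and 30.8 to 71.0 (median 36.9) in vehicle pools (1.78 ± 0.26, limma adjusted p = 0.000294). Lrrc8b, a subunit of volume-regulated anion channels, had 140.5 to 292 (median 230.1) in Str let-7f pools and 51.7 to 136 (median 69.5) in vehicle pools (1.54 ± 0.22, limma adjusted p = 0.000241), and in both genes the groups did not overlap.

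Proteases and adhesion molecules at the cell surface gave fewer calls. Of 40 protease and inhibitor genes, 2 rose and 1 fell (median -0.02), and 1 was called in the deeper libraries. Serpinb6b, an intracellular serine protease inhibitor, had 121 to 339 normalized counts (median 224) in Str let-7f pools, against 31.5 to 123 (median 61.5) in vehicle pools (1.67 ± 0.31, limma adjusted p = 0.00339). Tmprss2, a transmembrane serine protease, had 912 to 1535 (median 1393) in Str let-7f pools and 1552 to 2041 (median 1917) in vehicle pools (-0.57 ± 0.13, limma adjusted p = 0.013; limma adjusted p = 0.0657 in the deeper libraries). The peptidase gene Dpp4 was called at 0.98 ± 0.25 and lost in 9 of 15 leave-outs, with a limma adjusted p up to 0.0864 without vehicle replicate 2. Of 42 integrin, matrix receptor and adhesion genes, 3 rose and 0 fell (median -0.10), with 1 in the deeper libraries, by edgeR and with only the 2 groups in the fit. That gene was Cadm4, a cell adhesion molecule of the immunoglobulin family, with 89.9 to 545 (median 166) in Str let-7f pools and 26.8 to 64.2 (median 45.5) in vehicle pools (2.12 ± 0.38, limma adjusted p = 0.00266). L1cam (1.27) and Tspan15 (1.38) were lost in 8 and 11 of 15 leave-outs, and Cadm4 was the only call of the list without Str let-7f replicate 6, 7 or 9 or vehicle replicate 3 or 8. Plxnb2, a semaphorin receptor gene, had 2531 to 4041 (median 3013) in Str let-7f pools and 1534 to 2475 (median 1797) in vehicle pools (0.71 ± 0.10, limma adjusted p = 0.000247), all Str let-7f pools above the vehicle pools.

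Cytokine and receptor genes gave 3 higher and 1 lower of 34 measured (median 0.24), 1 of them in the deeper libraries. Il1rn, the secreted antagonist of the interleukin-1 receptor, had 82.3 to 307 normalized counts (median 219) in Str let-7f pools, against 15.5 to 85.6 (median 52.9) in vehicle pools (2.03 ± 0.39, limma adjusted p = 0.00474). Lifr, the receptor for leukaemia inhibitory factor, which sustains the inner cell mass in culture, had 412 to 1125 (median 520.2) in Str let-7f pools and 865 to 1211 (median 931) in vehicle pools (-0.80 ± 0.17, limma adjusted p = 0.0106; limma adjusted p = 0.0727 in the deeper libraries). Il1rn and Lifr belong to different ligands, and for each gene 7 of 8 Str let-7f pools lay outside the vehicle range. The kinase gene Jak3 (0.74) and the receptor gene Il17re (0.70) were each lost in 5 of 15 leave-outs, and without Str let-7f replicate 3 the list had 2 calls. Glycoproteins of placenta and trophoblast gave 3 higher and 0 lower of 25 (median 0.26). Ly6a, a surface protein anchored by lipid and better known as Sca-1, had 167 to 481 (median 381) in Str let-7f pools and 56.3 to 170.5 (median 89.4) in vehicle pools (1.79 ± 0.28, limma adjusted p = 0.000548). Ceacam1, a cell adhesion glycoprotein, had 50.8 to 202 (median 182) in Str let-7f pools and 35.7 to 65.8 (median 42.8) in vehicle pools (1.75 ± 0.27, limma adjusted p = 0.00065). The third was Lgals3. Members of the Ly6 and Ceacam families have close copies, so their values are uncertain to that extent.

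Immediate early and p53 response genes rose in several members. Of 33 measured AP-1 and immediate early genes, 4 rose and 1 fell (median 0.28), and the list had 3 calls in the deeper libraries, 2 of them among these 5, and 3 without Str let-7f replicate 5. Jund, an AP-1 subunit, had 2286 to 4339.6 normalized counts (median 2802) in Str let-7f pools, against 1623 to 2315 (median 1986) in vehicle pools (0.56 ± 0.12, limma adjusted p = 0.0119). Jun itself was at 442 in Str let-7f pools and 182 in vehicle pools by median (1.27 on the log2 scale). Zfp36l1, which speeds decay of messages with AU-rich elements, was the member that fell, with 317 to 521 (median 371) in Str let-7f pools and 530.1 to 776 (median 603) in vehicle pools (-0.66 ± 0.14, limma adjusted p = 0.0119; limma adjusted p = 0.0773 in the deeper libraries). Fos and Btg2 were called at 2.37 and 0.79 and lost in 5 and 11 of 15 leave-outs.

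The p53 response list had 8 higher and 0 lower of 38 measured (median 0.22), with 4 in the deeper libraries and 5 without Str let-7f replicate 5 or 9 or vehicle replicate 3 or 6. Ptp4a3, a phosphatase gene known as PRL-3, had 158 to 415 normalized counts (median 242) in Str let-7f pools, against 40.1 to 133 (median 65.7) in vehicle pools (1.86 ± 0.31, limma adjusted p = 0.00114). Sfn, which encodes 14-3-3 sigma, a brake on mitotic entry and a protein of stratifying epithelia, had 3873 to 5851 (median 4576) in Str let-7f pools and 2818 to 4019 (median 3192) in vehicle pools (0.54 ± 0.10, limma adjusted p = 0.00344). Trp53inp2, which takes part in autophagy, had 425 to 1241 (median 477) in Str let-7f pools and 206 to 493 (median 259.6) in vehicle pools (1.04 ± 0.23, limma adjusted p = 0.013), but only 3 of 8 Str let-7f pools lay above every vehicle pool. Perp, also a desmosome gene, and Ccng1 were at 0.55 and 1.02; Perp had a limma adjusted p of 0.0636 in the deeper libraries. Cdkn1a (0.74), Apaf1 (0.80) and Btg2 were lost in 9, 10 and 11 of 15 leave-outs. DNA repair and checkpoint genes, a list of 54, had 0 calls (8 at an unadjusted p under 0.05, 0 by edgeR and 1 by DESeq2).

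Heat shock chaperone genes gave 5 higher and 0 lower of 39 (median 0.06), and the list had 2 calls in the deeper libraries, 1 of them among these 5, and 8 with DESeq2. Cryab, the small heat shock protein alpha-B crystallin, had 323 to 659 normalized counts (median 597) in Str let-7f pools, against 147 to 476 (median 265) in vehicle pools (1.01 ± 0.21, limma adjusted p = 0.00794), with 5 of 8 Str let-7f pools lying above every vehicle pool. Hspb1 (0.68), the co-chaperones Dnaja1 (0.54) and Bag3 (0.51) and the small gain of Bag1 (0.37) were lost in 3, 5, 10 and 11 of 15 leave-outs. The count was 1 without Str let-7f replicate 6, 2 without Str let-7f replicate 10 or vehicle replicate 2 or 3, and 3 without Str let-7f replicate 5, 7 or 9 or vehicle replicate 1, 5 or 6. The mean over the list was higher in each of the 8 Str let-7f pools than in any vehicle pool, by 0.16 to 0.35 above the vehicle mean on the log2 scale, although 14 of the 39 members lay below 0. The proteasome, which removes misfolded proteins, had 34 of 40 subunit genes above 0 (median 0.12), with 0 calls by limma, edgeR or DESeq2 and 8 at an unadjusted p under 0.05.

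**Figure D4:**
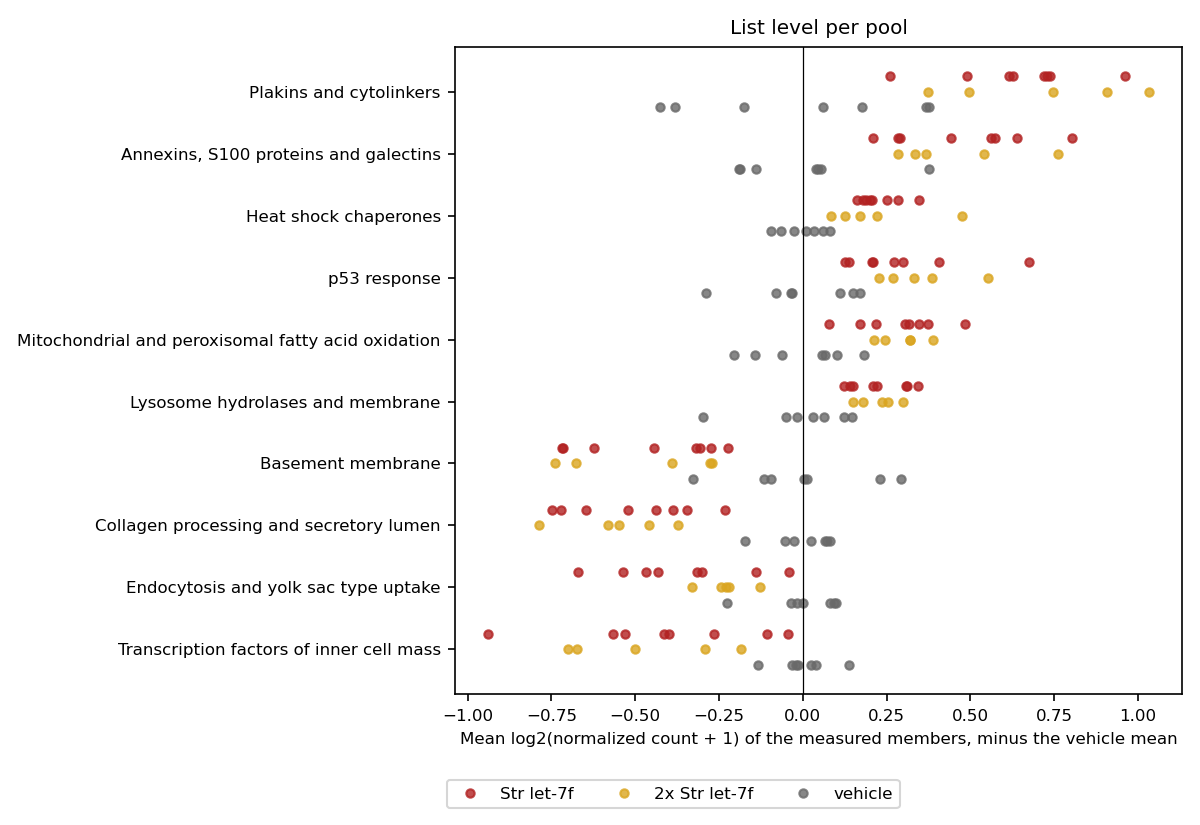
The plot of list levels gives the mean log2(normalized count + 1) of all measured members of 10 lists in each pool, minus the vehicle mean, with Str let-7f above 2x Str let-7f and vehicle in each row. Heat shock chaperones lie higher in all 8 Str let-7f pools than in any vehicle pool. The list of collagen processing and the secretory lumen lies lower in all 8. In the other rows 1 to 4 Str let-7f pools overlap with vehicle pools.

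Among regulators of transcription, some inner cell mass factors were lower. Of 42 measured, 7 fell and 1 rose (median -0.27), but the list had 2 calls in the deeper libraries, 1 of them among these 8, and 5 with edgeR. Sox7, a factor of the primitive endoderm, had 6.33 to 226 normalized counts (median 64.7) in Str let-7f pools, against 214 to 452 (median 266) in vehicle pools (-2.54 ± 0.59, limma adjusted p = 0.0172); it did not pass with edgeR (adjusted p = 0.0554). It did not pass in the deeper libraries either (limma adjusted p = 0.0961). Calls lost in leave-outs included Gata4 (-1.12, 7 of 15), Tcf7l1 (-1.33, 8 of 15), Mycn, Foxq1 (-1.21, lost without vehicle replicate 2 or vehicle replicate 6) and, on the higher side, Tfcp2l1 (0.29, 12 of 15). The count was 2 without vehicle replicate 2, 3 without Str let-7f replicate 7 or 10 or vehicle replicate 1, 3 or 6, 4 without Str let-7f replicate 6 or 9, and 5 without Str let-7f replicate 5 or vehicle replicate 5. Of 30 trophectoderm transcription factors, 0 were called (median -0.06, 6 at an unadjusted p under 0.05, 0 by edgeR and 1 by DESeq2).

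Polycomb and histone methylation genes split into 2 higher and 2 lower of 54 (median -0.13), with none called by limma in the deeper libraries. Setd2, which trimethylates histone H3 on transcribed genes, had 4726 to 6707 normalized counts (median 5477) in Str let-7f pools, against 3586 to 4917 (median 4148) in vehicle pools (0.39 ± 0.09, limma adjusted p = 0.0172; limma adjusted p = 0.105 there). The Polycomb partners Jarid2 (-0.33) and Epop (-0.58) were lost in 10 and 13 of 15 leave-outs, and the list had 2 calls without Str let-7f replicate 3, 5, 7 or 9 or vehicle replicate 1, 3, 5, 6 or 8. Of 37 cyclin and kinase genes, 2 rose and 1 fell (median 0.01), 1 of them in the deeper libraries. Cdk20, a kinase of the cell cycle and cilium, had 3.51 to 19.08 (median 12.9) in Str let-7f pools and 22.6 to 134 (median 41.4) in vehicle pools (-2.05 ± 0.47, limma adjusted p = 0.015; 0.0511 there), and the 2 that rose were Ccng1 and Cdkn1a.

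Of 36 TRIM ligase genes, 2 rose and 2, Trim6 and Trim71, fell (median -0.03), and 7 were called with DESeq2. Trim43a, of a family switched on in cleavage-stage embryos, had 1384 to 2598 normalized counts (median 2012) in Str let-7f pools, against 635 to 1429 (median 1122) in vehicle pools (0.91 ± 0.17, limma adjusted p = 0.00332), though near-identical copies make its value uncertain. Trim38, an innate immunity regulator, was called at 2.34 ± 0.59 and lost in 6 of 15 leave-outs, with a limma adjusted p up to 0.064 without Str let-7f replicate 6. Of 13 oocyte genes measured, of 41 listed, 2 rose and 1 fell (median 0.07), 1 of them in the deeper libraries. Ooep, of the subcortical maternal complex, had 215 to 431 (median 264) in Str let-7f pools and 85.3 to 214 (median 132) in vehicle pools (1.04 ± 0.21, limma adjusted p = 0.00785), with no overlap of the groups. Khdc3 was at 0.52, with a limma adjusted p of 0.06 in the deeper libraries. The importin gene Kpna7, at 0 in Str let-7f pools and 13.8 in vehicle pools by median, was not called, or not tested, in 5 of 15 leave-outs. The summed level of 4 oocyte markers in the table was 0.648 to 11.5 RPM in Str let-7f pools and 2.55 to 15.8 in vehicle pools, and their part in these values was not tested.

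Genes named by rank, the 11th to the 25th smallest p in each direction, held several outside every list. Pof1b, which encodes an actin-binding protein of epithelial junctions in human, had 35.2 to 198 normalized counts (median 131) in Str let-7f pools, against 1.19 to 37.0 (median 5.67) in vehicle pools (3.81 ± 0.52, limma adjusted p = 0.000145), and 7 of 8 Str let-7f pools lay above every vehicle pool. Pou3f1, a POU factor also called Oct6 and found in epidermis and glia, had 12.0 to 79.6 (median 41.1) in Str let-7f pools and 0 to 8.32 (median 1.85) in vehicle pools (3.93 ± 0.56, limma adjusted p = 0.00023). Pou3f1 showed no overlap of the groups, but all its vehicle values were under 10, the minimum of the filter on low values. It passed that filter through its mimic pools, so its fold and lack of overlap are partly set by it. Vnn1, a pantetheinase that yields cysteamine, had 613 to 1043 (median 759) in Str let-7f pools and 207 to 395 (median 304) in vehicle pools (1.40 ± 0.19, limma adjusted p = 0.00014). Itpkb, a kinase of inositol trisphosphate, had 52.0 to 148 (median 98.2) in Str let-7f pools and 13.8 to 34.8 (median 20.4) in vehicle pools (2.08 ± 0.29, limma adjusted p = 0.000187). Abca5, a lipid transporter of lysosomes, had 108 to 335 (median 263) in Str let-7f pools and 24.96 to 95.2 (median 46.2) in vehicle pools (2.18 ± 0.31, limma adjusted p = 0.000241). In these 3 genes every Str let-7f pool lay above every vehicle pool.

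On the lower side, Zfp462, a zinc finger gene of pluripotent cells, had 44.3 to 233 normalized counts (median 118) in Str let-7f pools, against 284 to 452 (median 371) in vehicle pools (-1.63 ± 0.30, limma adjusted p = 0.00326). Luc7l2, a factor of splice site choice, had 1498 to 1862 (median 1743) in Str let-7f pools and 1940.0 to 3162 (median 2416) in vehicle pools (-0.50 ± 0.10, limma adjusted p = 0.00494). Nedd4, a ubiquitin ligase of membrane proteins, had 1126 to 2149 (median 1404) in Str let-7f pools and 2164 to 4021 (median 2868) in vehicle pools (-0.93 ± 0.19, limma adjusted p = 0.00785). The groups did not overlap in any of the 3. Atp11a, a flippase of membrane phospholipids, had 646 to 1037 (median 747) in Str let-7f pools and 892 to 1911 (median 1572) in vehicle pools (-0.85 ± 0.16, limma adjusted p = 0.00334). Cpn1, the catalytic subunit of carboxypeptidase N, had 17.6 to 80.3 (median 24.9) in Str let-7f pools and 70.1 to 257 (median 159) in vehicle pools (-2.32 ± 0.40, limma adjusted p = 0.00159), with 6 of 8 Str let-7f pools lying below every vehicle pool. Adam19, a membrane metalloprotease, had 298 to 2457 (median 675) in Str let-7f pools and 1315 to 4602 (median 2715) in vehicle pools (-1.94 ± 0.39, limma adjusted p = 0.00666), with Str let-7f replicate 2 at 2457 and the other 7 at 298 to 784. Nedd4 and Adam19 did not pass in the deeper libraries (limma adjusted p = 0.0643 and 0.0592).

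Of the 397 calls, 165 fell in at least 1 of 77 lists and 232 in none; 6.32% of the 2611 tested genes in any list were called and 1.86% of the others, and the lists were written with earlier results of these data known. Among calls in no list, 10 more are given, chosen after their values were seen. Klk7, a protease that sheds cells of the outer skin, had 448 to 880.3 normalized counts (median 674) in Str let-7f pools, against 96.3 to 364 (median 271) in vehicle pools (1.57 ± 0.27, limma adjusted p = 0.00132). Cers3, a ceramide synthase of the skin barrier, had 151 to 218 (median 177) in Str let-7f pools and 18.7 to 176 (median 72.7) in vehicle pools (1.52 ± 0.32, limma adjusted p = 0.00934). Aldh3b2, an aldehyde dehydrogenase of lipid droplets, had 165 to 513 (median 434) in Str let-7f pools and 88.3 to 319 (median 166) in vehicle pools (1.26 ± 0.26, limma adjusted p = 0.00797). Each of these genes was higher in at least 5 of 8 Str let-7f pools than in any vehicle pool. Mmp12, a macrophage and trophoblast metalloprotease gene, rose by 1.82 ± 0.34, and Slc4a3, an anion exchanger gene, by 3.88 ± 0.62. App, the amyloid precursor gene, rose by 0.99 ± 0.21, Epas1, the hypoxia-inducible factor 2 alpha gene, by 0.90 ± 0.20, and A4galt, which makes globo-series glycolipids, by 0.83 ± 0.13. Tbc1d4, a regulator of glucose transporter traffic, rose by 2.81 ± 0.52. Zscan10, a zinc finger gene of pluripotent cells, had 90.1 to 276 (median 129.7) in Str let-7f pools and 314 to 971 (median 493) in vehicle pools (-1.79 ± 0.37, limma adjusted p = 0.00785; limma adjusted p = 0.0545 in the deeper libraries).

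Of the lists, 32 had 1 or 2 calls, and 8 of their members that held in every leave-out are given, also chosen after their values were seen. Higher were the actin-severing gelsolin gene Gsn (0.75 ± 0.13), the recycling GTPase gene Rab25 (2.15 ± 0.46), the receptor gene Tgfbr2 (1.16 ± 0.26), the lamin A gene Lmna (0.44 ± 0.09) and the mitochondrial nucleotide kinase gene Ak3 (0.89 ± 0.18). Higher as well was Dhcr7, of the last step of cholesterol synthesis (0.83 ± 0.19). Lower were B4galt6, a lactosylceramide synthase (-0.70 ± 0.15), and Mthfd1l, of mitochondrial folate metabolism (-0.84 ± 0.19). Of these, B4galt6 and Mthfd1l did not pass in the deeper libraries (limma adjusted p = 0.0555 and 0.0545). Another of these lists, genes of the 2-cell stage, had the highest median of the 77 lists (2.41), with all 23 measured members of 38 listed above 0. Limma called 2, Usp17le (3.98 ± 0.92) and Eif1ad3 (3.14 ± 0.81), edgeR 11 and DESeq2 16, and limma 0 in the deeper libraries. Eif1ad3 was lost in 7 of 15 leave-outs, with a limma adjusted p up to 0.084 without vehicle replicate 2. Usp17le had 0 to 124 normalized counts (median 39.2) in Str let-7f pools, against 0 to 1.92 (median 0) in vehicle pools, and Eif1ad3 had 6.24 to 106 (median 18.6) in Str let-7f pools and 0 to 12.3 (median 0) in vehicle pools. With vehicle levels so near 0, such a gene could pass the filter on low values through its mimic pools, so the median is no support for a change, and near-identical copies make single members uncertain.

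No gene was called by limma in 18 lists, which held 652 entries, with 108 of them (16.6%, against 14.9% of all genes tested) at an unadjusted p under 0.05, 1 called by edgeR and 15 by DESeq2. They were growth and housekeeping lists such as ribosomal proteins (39 measured, median -0.08), ribosome biogenesis (46, -0.07), translation (46, -0.06), oxidative phosphorylation (50, 0.01) and S phase (50, -0.15), and signalling lists such as insulin and mTOR (40, 0.03), Notch (20, -0.06) and ERK feedback (29, -0.02). Targets of ATF4, the factor of the amino acid response, lay below 0 in 30 of 32 cases (median -0.33) without a call, 9 at an unadjusted p under 0.05, 0 by edgeR and 2 by DESeq2. In mean level that list ranged from -0.96 to 0.26 in Str let-7f pools and from -0.66 to 0.50 in vehicle pools relative to the vehicle mean, which is wide overlap.

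Pools differed in how far they moved. Of the 27 lists with 3 or more calls, 3 had all 8 Str let-7f pools outside the vehicle range in mean level. These were the regulators around LIN28, the genes of collagen processing and the secretory lumen, and the heat shock chaperones. Over all 77 lists 4 did, and the other was creatine, phosphagen and nucleotide kinases, with 2 calls. The 27 lists were picked by calls in these same pools, so the counts are descriptions. In 15 of the 27 lists the lowest Str let-7f pool was replicate 9, the library with the fewest reads, and in 0 of them the highest. The part of its depth in these levels was not tested, and calls without it are given by the leave-outs and the deeper libraries.

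At the doubled concentration 285 genes (1.89%) were called against the same vehicle libraries, 185 (1.23%) higher and 100 (0.664%) lower. The shared vehicle pools tie both comparisons, so values are only set side by side. Plec had a median of 21717 normalized counts in 2x Str let-7f (0.86 ± 0.10, limma adjusted p = 4.1e-05). Lgals4 had 2146 (0.81 ± 0.12, limma adjusted p = 0.000266). Trim6 had 765 (-1.45 ± 0.21, limma adjusted p = 0.000225) and Acsl6 498 (-0.98 ± 0.18, limma adjusted p = 0.00348). These medians lay on the same side of vehicle as those of Str let-7f. Some named genes were not called at the doubled concentration, among them Mal (2.43 ± 0.78, limma adjusted p = 0.126), Scnn1a (2.07 ± 0.86, limma adjusted p = 0.285), Lgals9 (1.40 ± 0.39, limma adjusted p = 0.0676) and Atp11a (-0.39 ± 0.18, limma adjusted p = 0.361). In the fatty acid oxidation list 1 rose and in the heat shock list 1, and in the basement membrane list 7 fell. Between 2x Str let-7f and Str let-7f 0 genes passed with limma (smallest adjusted p = 0.126, 608 at an unadjusted p under 0.05), 1 with edgeR and 10 with DESeq2, and none of the genes named for their values here was among those 10.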

How the data were processed

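Total RNA of pooled blastocysts was depleted of ribosomal RNA and sequenced from stranded low-input libraries (labels' protocols). Tools named in the submitters' processing notes are kallisto 0.50.1, Trimmomatic 0.39, FastQC 0.12.1, MultiQC 1.28 and DESeq2 1.48.2, with GRCm39 as the genome; the annotation is not given in the sources used here. The deposited values are normalized counts, a signal scaled for depth by the authors. Dividing by the worth of 1 read gave whole numbers for 100% of values in every library (tolerance 0.01), so reads and depths were recovered. Of 16014 named genes, 15068 had at least 10 in at least 5 of 20 libraries. A gene near 0 in 1 group could pass through the other pools alone, and its fold or lack of overlap is then partly set by the filter. An entry without a name (0.0286% to 0.0618% of reads) was left out. kallisto divides reads among similar transcripts.

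limma 3.58.1 in R 4.3.3 fitted log2(value + 1) with 1 mean per group over all 20 libraries and a trended prior, two-sided, adjusted by Benjamini-Hochberg. Folds of low genes depend on this scale, in both directions. Scnn1a stood at 3.79 with limma and 2.69 with edgeR, and Cbr2 at 5.60 with limma and 6.64 with edgeR. Alternatives were edgeR 4.0.16 and DESeq2 1.42.0 on recovered reads, TMM scaling, pseudocounts of 0.5 and 10, no filter or a minimum of 50, only the groups compared, the replicate number as a block, libraries over 5 M reads and leaving out each library. The fit was tested on simulated data.

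The comparison and its 77 gene lists, from textbook knowledge, were chosen with earlier results of these data known, so counts per list are descriptions. A list was described where at least 3 members were called at 2 or more times the share over all genes. Named genes were ranks 11 to 25 by p in each direction, without predicted models, clones and pseudogenes, up to 6 members of each such list that passed in every leave-out, and up to 8 lower genes with an 8-base let-7 site; a few genes that met the rule are not reported here. GENCODE M21 symbols matched 14109 of the names and older symbols 328, leaving 631 unmatched. Reads are PCR copies, so counting floors and depths cover counting error only.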

Additional observations from a re-analysis of the deposited data

Results flagged for a closer look

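In 186 groups of pools (93 named genes in 8 Str let-7f and in 7 vehicle pools), 17 held a pool whose gap to its nearest neighbour was wide for the range of the group, where chance flags about 1 in 20. In Str let-7f these were replicate 9 for Plxnb2 (4041 normalized counts, the others 2531 to 3132), Rnd1 (146, the others 33.0 to 83.4) and Lgals9 (317, the others 61.3 to 164). Replicate 2 stood high for Adam19 (2457, the others 298 to 784), Rcn1 (276, the others 82.8 to 159) and Lifr (1125, the others 412 to 669), and low for Ceacam1 (50.8, the others 133 to 202). Replicate 1 stood high for Ckap4 (1061, the others 564 to 739), Cyp26a1 (31.3, the others 0 to 2.81) and Atp2a3 (329, the others 120.3 to 175). In vehicle, replicate 8 stood high for Pof1b (37.0, the others 1.19 to 13.4), replicate 2 for Gpnmb (84.4, the others 9.25 to 36.3) and Cbr2 (3.57, the others 0 to 1.49), and replicate 7 for Slc25a20 (685, the others 447 to 549.8) and Ceacam1 (65.8, the others 35.7 to 45.2). Vehicle replicate 5 stood high for Scnn1a (90.9, the others 0 to 27.2), and vehicle replicate 1 for Cyp26a1 (56.6, the others 12.1 to 24.3). Each of these genes was called in Str let-7f against vehicle without the pool as well. That outcome was fixed beforehand, since all 93 named genes had passed in every leave-out.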

How the results depend on the processing

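The 397 calls in Str let-7f against vehicle became 767 (511 higher, 256 lower) with DESeq2 and 201 (156 higher, 45 lower) in the libraries over 5 M reads, a fit of fewer libraries; leaving out 1 library gave 282 to 459. Of the 397, 350 passed with edgeR, 390 with DESeq2, 374 with TMM scaling and 174 over 5 M reads. Under a block by replicate number, 239 of the 397 passed. The 285 calls in 2x Str let-7f against vehicle became 620 with DESeq2 and 68 over 5 M reads, and 144 to 273 on leaving out 1 library. Between 2x Str let-7f and Str let-7f, 0 became 10 with DESeq2, 1 with edgeR and 0 to 1 on leaving out 1 library. With the replicate number as a block, 293 (198 higher, 95 lower), 277 and 0 genes were called in these comparisons. Pools with the same number correlated at 0.0009 to 0.0877 in their deviations, and 2 of 6 correlated best with their own number. Such weak correlations cannot show whether pools of the same number shared a day or batch, and the main fit did not pair them. For the named genes 2321 values were recomputed. Of these, 2284 kept direction and call, and 0 changed direction. Another 37 kept direction and lost the call (21 over 5 M reads, 12 under the block, 3 with edgeR, 1 with DESeq2). All 93 named genes had passed in every leave-out. The leave-out values among the 2284 therefore could not lose the call, and their share is no measure of stability. Depth limits genes of few reads, since 3 reads were worth up to 19.0 normalized counts.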
